A study of Mus musculus with 18 samples.

Results

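The transcriptome of invading mouse lung fibroblasts was compared with that of non-invading cells after 72 and after 96 hours, and the question here was how far the invasion ratio itself changed between both times. For each gene the log2 ratio of invading to non-invading cells at 72 hours was subtracted from that at 96 hours, in 1 fit over all 18 samples. A difference above 0 means that the invading fraction stood higher, relative to the non-invading fraction, at 96 than at 72 hours. The comparison took every gene with a probe set that carries its symbol alone, which gave 19938 genes of 35556 probe sets, and read each gene by its brightest probe set. Genes were then read by 38 functional lists, among them cell cycle, inflammation and contraction genes.

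The cells were MLg 2908 fibroblasts, an established line from newborn ddY mouse lung, of wild type genotype. They were plated on top of a collagen gel, and cells found inside the gel formed the invading fraction while cells left on the gel formed the non-invading fraction. There were 4 biological replicates per fraction at 72 hours and 5 per fraction at 96 hours, each measured on 1 Affymetrix Mouse Gene 1.0 ST array, and different samples served both times. The protocol entry of every sample names TGFB1 treatment together with the assay, whereas the titles name no treatment, so that the labels leave the treatment of all 4 groups unsettled. The study describes the invasion on the arrays as spontaneous, and its array heatmaps define a mark for non-treated cells. As all samples come from 1 cell line, the replicates measure the spread between cultures and not between animals.

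The deposited log2 signals ran from 2.94 to 14.7, and the medians of the samples from 6.46 to 6.65. Pairs of samples of the same group correlated over all probe sets at 0.991 to 0.996. Fibroblast markers were bright, with a median mean signal of 11.99 over 15 genes, among them Fn1, Vim and Dcn, although Thy1 and Tcf21 lay at 6.07 and 5.97. Marker lists of epithelial, endothelial, macrophage, lymphocyte, mesothelial and erythroid cells had medians between 5.40 and 6.22, below the median of all genes at 7.14, although the mesothelial marker Msln was at 10.17 and the epithelial marker Krt8 at 7.57. None of these marker lists held a gene past the test for the difference between times. Only 3 of all 19938 genes passed it, so this absence says little about the make-up of the fractions. At an unadjusted p under 0.05, 2 of 15 fibroblast and 1 of 6 mesothelial markers were lower and 0 higher, beside 3.41% and 4.73% of all genes.

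Fibroblasts enter collagen by cutting it with secreted proteases and by pulling on it with the actin and myosin apparatus. Cells that prepare to divide switch on genes in order, first those of DNA replication, which the E2F factors drive, then those of chromosome separation. Promoters of the late genes often carry CCAAT boxes, bound by NF-Y, and a cell cycle homology region (CHR), bound by the MuvB complexes. A growing cell also needs new ribosomes, exported mRNA and chaperones that fold newly made proteins.

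The mitotic genes formed the list with the largest median difference, and CCAAT boxes and CHR letters are frequent in this list. Promoters are therefore shown for the 3 members with the smallest p among those with a promoter entry, leaving out 1 chromosome. The sequences are from RefSeq on build GRCm38.p6 and run from 250 bases before to 50 bases after the start of the gene, with CCAAT and TTTGAA on either strand in capitals. The promoter of Kif23, a kinesin of the midbody, lies at chr9:61946750-61947049, that of Top2a, the topoisomerase that untangles replicated DNA, at chr11:99024140-99024439, and that of Ccnb2, a mitotic cyclin, at chr9:70421505-70421804, all on the minus strand.
Kif23: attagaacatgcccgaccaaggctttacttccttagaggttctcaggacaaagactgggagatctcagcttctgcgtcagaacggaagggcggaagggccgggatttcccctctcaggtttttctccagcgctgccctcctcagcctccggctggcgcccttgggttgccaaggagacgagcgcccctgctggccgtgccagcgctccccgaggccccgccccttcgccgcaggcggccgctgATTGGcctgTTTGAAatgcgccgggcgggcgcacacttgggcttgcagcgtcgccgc
Top2a: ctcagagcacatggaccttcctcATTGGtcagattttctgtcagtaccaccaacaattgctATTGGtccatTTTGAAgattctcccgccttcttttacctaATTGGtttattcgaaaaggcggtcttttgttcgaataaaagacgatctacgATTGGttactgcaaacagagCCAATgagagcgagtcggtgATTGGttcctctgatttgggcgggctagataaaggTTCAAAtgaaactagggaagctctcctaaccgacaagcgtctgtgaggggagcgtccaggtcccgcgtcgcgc
Ccnb2: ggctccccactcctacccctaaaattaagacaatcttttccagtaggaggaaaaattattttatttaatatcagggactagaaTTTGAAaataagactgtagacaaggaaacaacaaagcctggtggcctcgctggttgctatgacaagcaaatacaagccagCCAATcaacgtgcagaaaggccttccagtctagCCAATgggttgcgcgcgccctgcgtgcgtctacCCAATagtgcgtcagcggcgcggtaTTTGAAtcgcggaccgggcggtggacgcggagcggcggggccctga
Kif23 held 1 CCAAT box and 1 CHR, Top2a held 6 and 2, and Ccnb2 held 3 and 2. The promoters of Nuf2 and Bub1, next in p by the same choice, held 0 and 2 CCAAT boxes and no CHR.

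Of the 31 mitotic genes with a promoter in the RefSeq table, 23 (74.2%) held CCAAT and 22 (71.0%) held TTTGAA, and 19 (61.3%) held both. Among the promoters of all 15614 measured genes with an entry these shares were 38.2%, 15.2% and 6.12%. The letters of E2F sites (TTTCCCGC, TTTCGCGC, TTTGCCGC or TTTGGCGC) occurred in 13 of 39 promoters (33.3%) of the DNA replication list, in 1 of 31 mitotic promoters and in 3.08% of all promoters. For ribosome biogenesis genes the shares were 42.2% for CCAAT and 10.9% for TTTGAA over 64 promoters. These are matches of letters on both strands in 1 promoter per gene, and no relation between a match and a difference was tested.

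Invasion ratios at 72 and 96 hours were much alike, and few genes differed between times beyond the spread of the replicates. Across the 19938 genes both log2 ratios had a Pearson r of 0.82 and a Spearman rho of 0.72, a description across genes that are not independent replicates. The median difference was -0.01, the middle 50% of genes lay between -0.09 and 0.08, and 3 genes differed by more than 1 on the log2 scale, namely Dpt, Mmp13 and the small nucleolar RNA Snora75. The 95% interval of a gene reached a median of 0.24 to either side, a 1.18-fold change, before any adjustment for the number of genes. At an adjusted p under 0.10 the difference was past the threshold in 18 probe sets, 12 higher and 6 lower, of which 5 carry 1 symbol, 4 several and 9 none. The 5 were Gtpbp4, Pdcl, both probe sets of Sarnp, and a dim probe set of Pappa2 (0.64) whose brighter probe set gave 0.10 (adjusted p = 0.92). By the brightest probe set this left 3 genes, or 0.015% of the 19938, with the adjustment made over all 35556 probe sets. The count of 3 was 0 with fit and adjustment limited to the brightest probe set per gene or to probe sets of 1 symbol. It was also 0 when the replicate number was a block. At an unadjusted p under 0.05, 944 genes (4.73%) were higher at 96 hours and 679 (3.41%) lower, and with each sample centred on its median the split was 1290 to 262.

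**Figure D1:**
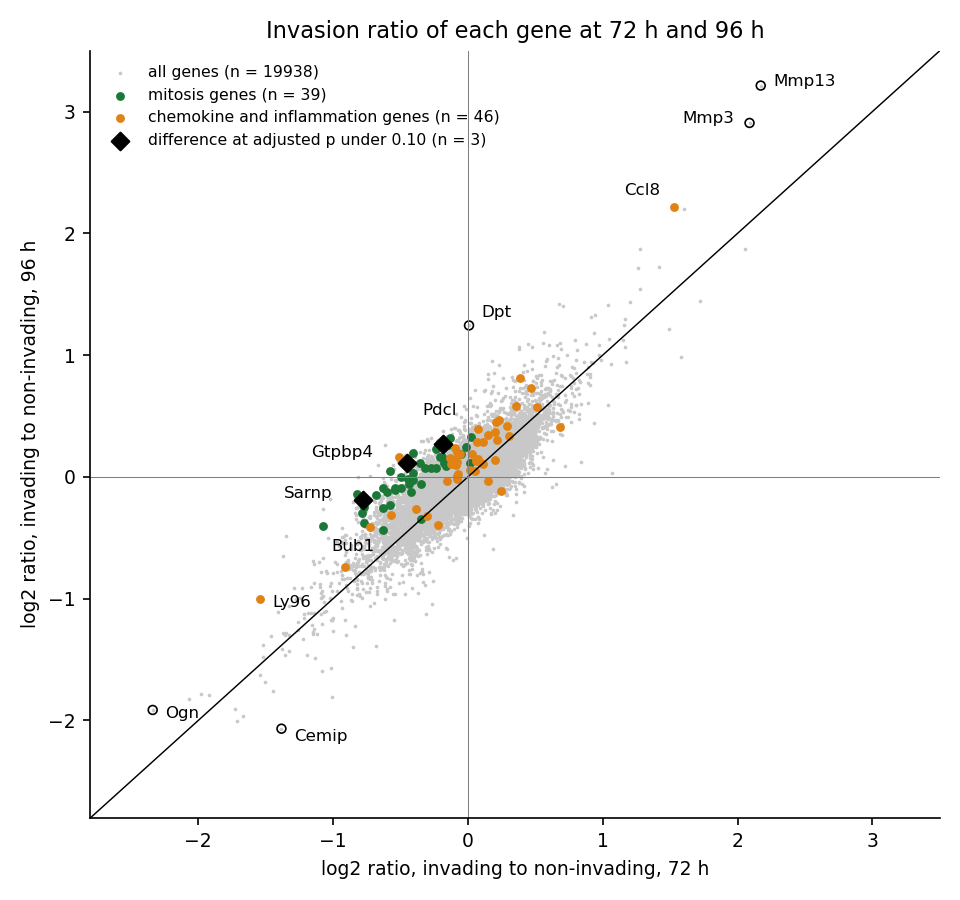
Log2 ratio of invading to non-invading cells at 72 hours (x axis) against 96 hours (y axis), 1 point per gene, with equal ratios on the diagonal. Most of the 19938 genes lie near the diagonal, the 39 mitotic genes (green) lie almost all above it, the 46 chemokine and inflammation genes are in orange, Gtpbp4, Sarnp and Pdcl (diamonds) are the 3 genes past the test for the difference, and Mmp13, Mmp3 and Dpt lie far above it.

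Genes that met the limits of regulation (adjusted p under 0.10 and a ratio above 1.5) at 1 time kept their direction at the other. At 72 hours 172 genes were higher in invading cells and 539 were lower, and 171 and 536 of these had the same sign at 96 hours. At 96 hours 228 were higher and 406 lower, and 228 and 405 had the same sign at 72 hours. Both limits were met at both times by 389 genes, 0 of them with opposite signs. Of the 322 genes that met them at 72 hours alone, 129 had an unadjusted p under 0.05 for the difference, 118 higher and 11 lower at 96 hours, beside 8.14% of all genes, and 1 passed the adjusted test. Since these genes were picked on the same values for passing at 72 hours and failing at 96 hours, and most were lower at 72 hours, both this count and its direction are largely set by the choice. Of the 245 that met them at 96 hours alone, 63 had such a p, 33 higher and 30 lower, and 0 passed the adjusted test by limma. A gene on the list of 1 time only was therefore seldom shown to differ between times.

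Gtpbp4, a GTPase of the large ribosomal subunit's assembly, was lower in invading cells at 72 hours and near equal at 96 hours. Its log2 signal in the invading samples at 72 hours was 9.37, 9.32, 9.38 and 9.28, against 9.93, 9.78, 9.65 and 9.80 in the non-invading samples. In the samples of 96 hours it was 10.16, 10.26, 10.19, 10.34 and 10.26 in the invading and 9.996, 10.13, 10.05, 10.34 and 10.14 in the non-invading samples. The fractions did not overlap at 72 hours, overlapped at 96 hours, and both stood above their own 72-hour samples. The log2 ratio went from -0.45 to 0.11, a difference of 0.57 ± 0.10 (SE; 95% interval 0.36 to 0.77, adjusted p = 0.084), or 1.48-fold.

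Sarnp, an RNA-binding protein of the mRNA export machinery, followed the same order. The invading samples had 10.03, 10.30, 10.52 and 10.34 at 72 hours and 11.26, 11.36, 11.22, 11.24 and 11.20 at 96 hours. The non-invading samples had 11.03, 11.05, 11.03 and 11.18 at 72 hours and 11.38, 11.51, 11.42, 11.48 and 11.45 at 96 hours. Invading cells lay below non-invading cells at both times without overlap, by 0.78 at 72 hours and by 0.19 at 96 hours on the log2 scale. The difference was 0.59 ± 0.11 (SE; 95% interval 0.37 to 0.81, adjusted p = 0.084), and a further probe set of Sarnp gave 0.60.

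Pdcl, a phosducin-like partner of the chaperonin TRiC in the assembly of G protein subunits, changed the sign of its ratio. Invading samples had 8.86, 8.81, 8.90 and 8.87 at 72 hours, all below the non-invading samples with 9.10, 8.95, 9.09 and 9.03. At 96 hours they had 9.66, 9.65, 9.61, 9.82 and 9.49, all above the non-invading samples with 9.28, 9.40, 9.38, 9.38 and 9.45. The log2 ratio went from -0.18 to 0.27, a difference of 0.45 ± 0.08 (SE; 95% interval 0.27 to 0.63, adjusted p = 0.094). In all 3 genes both fractions rose from 72 to 96 hours, the invading fraction by 0.90, 0.96 and 0.79 and the non-invading fraction by 0.34, 0.37 and 0.34.

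The calls of these 3 genes rest on few samples. Over 28 alternative settings the adjusted p of Gtpbp4 ran from 0.0365 to 0.194, of Sarnp from 0.0232 to 0.267 and of Pdcl from 0.0298 to 0.297, with the direction kept in each setting. Leaving out 1 sample gave from 0 genes (12 of the 18 samples, with at least 2 of each group) to 16 genes (without invading 72 hours replicate 3, or invading 96 hours replicate 5). Genes just outside the threshold, named here after their values were seen, were Tmx1 (0.49, adjusted p = 0.13), Wee1 (0.52, adjusted p = 0.14), Nfyb (0.59, adjusted p = 0.14) and Ppid (0.53, adjusted p = 0.14). Wee1 holds back the mitotic kinase, and Nfyb is a subunit of NF-Y, the factor that binds CCAAT boxes.

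**Figure D2:**
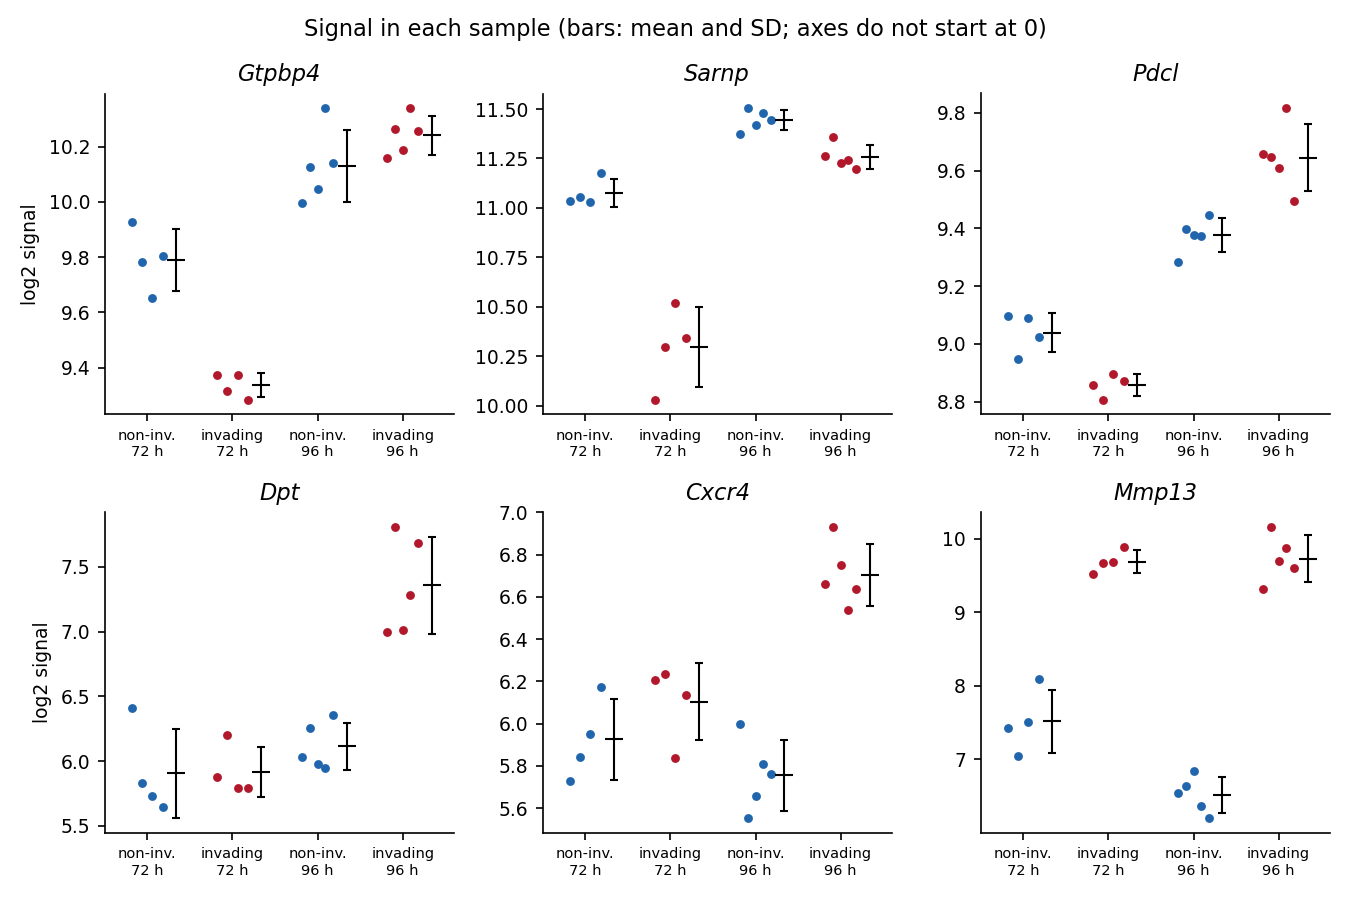
Log2 signal of 6 genes in each of the 18 samples (points; red, invading; blue, non-invading), with the mean and SD of each group (bars). Gtpbp4, Sarnp and Pdcl are lower in invading than in non-invading samples at 72 hours and rise in both fractions, Dpt and Cxcr4 are high in the invading samples at 96 hours, and Mmp13 has overlapping values in invading cells at both times and is lower at 96 than at 72 hours in non-invading cells.

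Mitotic genes were lower in invading cells at 72 hours and near equal in both fractions at 96 hours. Their median log2 ratio was -0.41 at 72 hours and -0.02 at 96 hours, and the median difference of 0.39 (1.31-fold) was the largest of the lists. Of 39 measured members 38 had a difference above 0, against 48.2% of all genes. At an unadjusted p under 0.05, 25 were higher and 0 lower, beside 4.73% and 3.41% of all genes, and 0 of the 39 passed the adjusted test by limma. At 72 hours 27 members were lower and 0 higher in the invading fraction (adjusted p under 0.10), where 15.7% of all genes were lower and 16.9% higher. At 96 hours 6 were lower and 5 higher, where 15.0% and 17.0% of all genes were. From 72 to 96 hours 21 members rose and 1 fell in the invading fraction (18.2% and 16.7% of all genes), and 1 rose and 8 fell in the non-invading fraction (15.4% and 12.2%).

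Kif23 had the smallest p of the list. Its signal in the invading samples was 9.35, 8.92, 9.24 and 9.29 at 72 hours and 9.61, 9.49, 9.44, 9.52 and 9.19 at 96 hours. In the non-invading samples it was 9.88, 9.83, 9.76 and 9.65 at 72 hours and 9.13, 9.38, 9.47, 9.75 and 9.27 at 96 hours. Invading cells thus lay below non-invading cells without overlap at 72 hours only, and the log2 ratio went from -0.58 to 0.05 (difference 0.63 ± 0.16 SE, adjusted p = 0.27). Top2a went from -0.24 to 0.23 (0.46 ± 0.13, adjusted p = 0.32). The largest differences were those of Ect2, which activates RhoA for cytokinesis, at 0.68, and Bub1, a kinase of the spindle checkpoint, at 0.67. Bub1 was still lower in invading cells at 96 hours, with a log2 ratio of -0.40 after -1.07. Members beyond Kif23 and Top2a were picked after their values were seen. Those with the smallest differences were Mki67 (0.19), Cdk1 (0.10) and Cenpf (0.00), and Mki67 was lower in invading cells at both times, by -0.63 and -0.44.

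**Figure D3:**
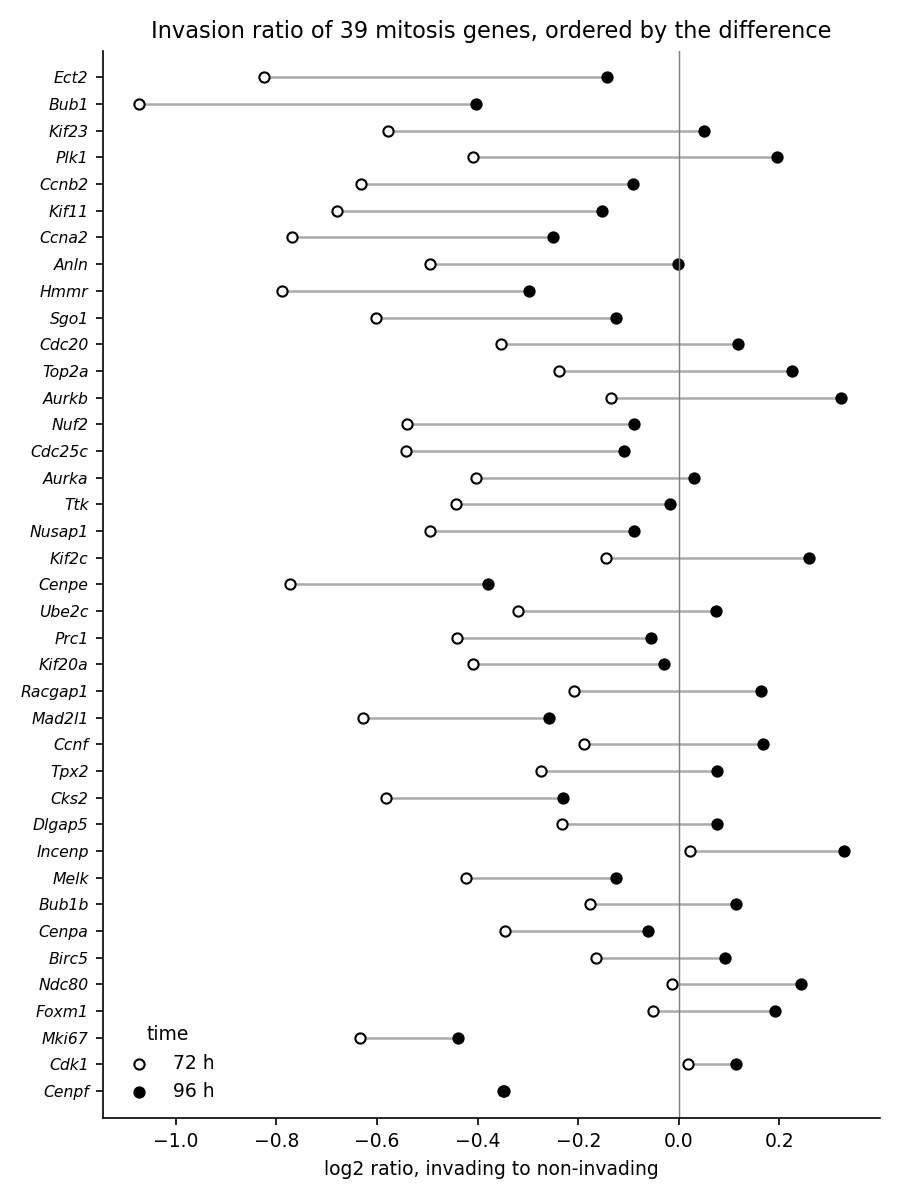
Log2 ratio of invading to non-invading cells for each of the 39 mitotic genes at 72 hours (open) and 96 hours (filled), ordered by the difference. In 38 of 39 genes the 96-hour point lies to the right of the 72-hour point, and most of the 96-hour points lie near 0.

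Cell cycle genes outside the list were also among the highest. Chek1, the checkpoint kinase, and Ncapg, a condensin subunit, were among the 8 genes with the highest difference at an unadjusted p under 0.01. Chek1 had 7.63, 7.52, 7.71 and 7.39 in invading and 8.68, 8.65, 8.40 and 8.61 in non-invading samples at 72 hours, and 8.43, 8.51, 8.23, 8.07 and 8.09 against 8.03, 8.38, 8.38, 8.90 and 8.54 at 96 hours. Its log2 ratio of -1.02 at 72 hours was -0.18 at 96 hours (difference 0.84 ± 0.19 SE, adjusted p = 0.21). Ncapg went from -0.81 to 0.00 (0.81 ± 0.20, adjusted p = 0.25), with a rise of 0.96 in the invading and a change of 0.15 in the non-invading fraction.

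DNA replication genes had a median log2 ratio of -0.06 at the earlier and 0.14 at the later time, with a median difference of 0.23. Of 47 members 44 had a difference above 0, 17 (36.2%) were higher and 0 lower at an unadjusted p under 0.05, beside 4.73% and 3.41% of all genes, and 0 passed the adjusted test by limma. At 72 hours 16 were lower and 2 higher in invading cells, and at 96 hours 1 was lower and 14 higher, where 15.7% and 16.9% of all genes were at 72 hours and 15.0% and 17.0% at 96 hours. With each sample centred on its median 8 members instead of 16 were lower at 72 hours. Mcm4, a subunit of the replicative helicase, had a ratio of -0.06 at 72 hours and 0.37 at 96 hours (difference 0.43 ± 0.11 SE). Rfc4, of the clamp loader, went from -0.52 to 0.13 (0.65 ± 0.17), and Pcna, the sliding clamp, from -0.29 to 0.01. Replication-dependent histone genes, which are copied in S phase, had a median difference of 0.20 over 27 genes. Of these H2bc4 (0.56) and H2bc8 (0.36) had an unadjusted p under 0.05, and none passed the adjusted test by limma.

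The cell cycle lists varied between samples of 1 group. The mean log2 signal of the mitotic genes was 8.96, 8.73, 8.96 and 9.07 in invading and 9.47, 9.46, 9.29 and 9.17 in non-invading samples at 72 hours. At 96 hours it was 9.32, 9.27, 9.19, 9.23 and 8.94 in invading and 9.0045, 9.19, 9.18, 9.54 and 9.14 in non-invading samples. The fractions were apart at 72 hours and overlapped at 96 hours, where non-invading replicate 4 was the highest and invading replicate 5 the lowest. The non-invading samples of 72 hours also split in the replication list, with means of 9.19 and 9.19 in replicates 1 and 2 and 8.91 and 8.87 in replicates 3 and 4, and in the ribosome biogenesis list, with 9.39 and 9.34 against 9.17 and 9.16. The median difference of the mitotic list stayed between 0.33 and 0.48 when any 1 sample was left out. Its count of higher members at an unadjusted p under 0.05 was 14 without invading 72 hours replicate 2, 15 without non-invading 72 hours replicate 1, and 34 without non-invading 96 hours replicate 4. That of the replication list was 28 without the latter sample and 9 to 11 without any 1 of invading replicates 2 and 3 or non-invading replicates 1 and 2 at 72 hours, invading replicate 2 or non-invading replicates 1, 3 and 5 at 96 hours. In bulk RNA, fewer dividing cells and less of these mRNAs per cell cannot be told apart.

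**Figure D4:**
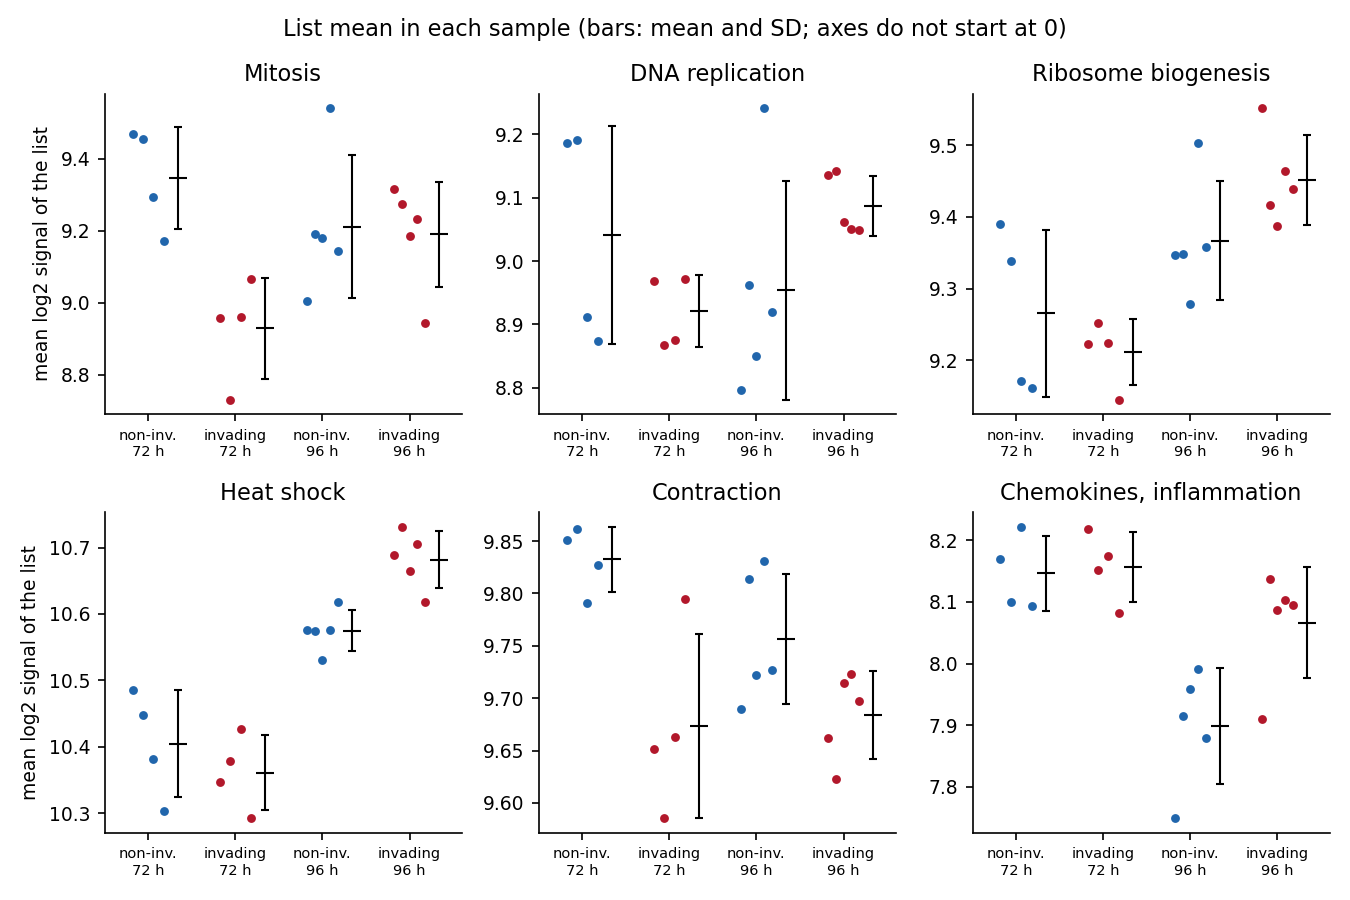
Mean log2 signal of 6 gene lists in each of the 18 samples (points; red, invading; blue, non-invading), with the mean and SD of each group (bars). Mitotic genes are lower in invading samples at 72 hours and overlap at 96 hours, heat shock and ribosome biogenesis genes are higher at 96 hours, and chemokine genes are lower at 96 hours most of all in non-invading samples.

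Genes of growth and protein making also had medians above 0, by smaller amounts. Ribosome biogenesis factors had a median log2 ratio of -0.05 at the earlier and 0.07 at the later time (median difference 0.13). Of 75 members 64 had a difference above 0, and Gtpbp4 alone passed the adjusted test. At an unadjusted p under 0.05, 12 were higher and 0 lower, beside 4.73% and 3.41% of all genes. Without non-invading 72 hours replicate 1 the count of 12 was 7. Ddx52, an RNA helicase, went from -0.49 to -0.16, and Nmd3, the export adaptor of the large subunit, from -0.47 to -0.12. The invading fraction held 44 members that rose and 3 that fell from 72 to 96 hours, and the non-invading fraction 27 and 8, where 18.2% and 16.7% of all genes did in the former and 15.4% and 12.2% in the latter.

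Heat shock genes had a median difference of 0.13, with 21 of 24 members above 0. At an unadjusted p under 0.05, 5 were higher and 0 lower, beside 4.73% and 3.41% of all genes. The count of 5 was 2 or 3 without any 1 of invading replicate 4 or non-invading replicates 1 and 2 at 72 hours, or invading replicates 1 and 2 or non-invading replicate 3 at 96 hours. Hspd1, the mitochondrial chaperonin, led them. It had 11.32, 11.34, 11.36 and 11.05 in invading and 11.52, 11.47, 11.30 and 11.43 in non-invading samples at 72 hours, and 12.09, 12.15, 12.07, 11.99 and 11.94 against 11.63, 11.73, 11.81, 11.73 and 11.71 at 96 hours. The fractions overlapped at 72 hours, and at 96 hours every invading sample was above every non-invading one (difference 0.49 ± 0.10 SE, adjusted p = 0.14). Cct8 (0.39) and Cct6a (0.31), subunits of TRiC, were higher at an unadjusted p under 0.05, but the median of the 17 TRiC genes and partners was 0.05.

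The lists of mRNA export and TRiC genes were written with the calls of Sarnp and Pdcl already known, so their counts are no independent support. Of 30 mRNA export factors 7 were higher and 0 lower at an unadjusted p under 0.05, beside 4.73% and 3.41% of all genes. Sarnp and Nxt2 (0.46) were among the 7, and the median difference of the list was 0.05. Of 50 splicing regulators 9 were higher and 1 lower at that p, beside the same shares of all genes, with a median of 0.11. With a mean signal of 8 or more, 16.7% of splicing and 21.4% of mRNA export genes were higher, beside 8.60% of all such genes. The count of 9 was 5 without invading 72 hours replicate 4 or invading 96 hours replicate 1. Pnn went from -0.36 to -0.02 and Srsf2, an SR protein, from -0.73 to -0.44. At both times more splicing genes were lower than higher in invading cells, 22 and 4 at 72 hours and 21 and 9 at 96 hours. Of all genes 15.7% were lower and 16.9% higher at 72 hours, and 15.0% and 17.0% at 96 hours. The 9 higher at 96 hours were therefore near the background. Of translation initiation factors Eif4e, which binds the mRNA cap, went from -0.15 to 0.21.

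The proteases that led the invasion ratio at both times had larger ratios at 96 hours. Mmp13, a collagenase, had 9.53, 9.67, 9.68 and 9.89 in invading and 7.43, 7.05, 7.51 and 8.09 in non-invading samples at 72 hours. After 96 hours it had 9.32, 10.17, 9.70, 9.88 and 9.61 in invading and 6.54, 6.64, 6.84, 6.37 and 6.20 in non-invading samples. The invading samples of both times overlapped (change 0.04, adjusted p = 0.91), whereas the non-invading fraction fell by 1.003 (adjusted p = 0.0011). Its ratio was 4.51-fold at 72 hours and 9.28-fold at 96 hours, and the difference of 1.04 ± 0.26 (SE; 95% interval 0.49 to 1.60) did not pass the adjusted test (adjusted p = 0.27). Mmp3, which cuts many matrix proteins and activates other proteases, went from 2.09 to 2.91 (0.82 ± 0.31, adjusted p = 0.46).

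Most other proteases stayed near their ratio, with a median difference of 0.05 over 39 members. At an unadjusted p under 0.05, 3 members were higher and 2 lower, near the background of 4.73% and 3.41% of all genes. Adamts1, which cuts proteoglycans, was among the lower ones, with ratios of -0.60 and -0.92. Timp1, the inhibitor of these proteases, went from 0.10 to 0.40 (0.30 ± 0.09 SE), and invading samples were above all non-invading samples at 96 hours only. Cemip, needed to degrade hyaluronan, had log2 ratios of -1.38 at 72 and -2.07 at 96 hours (difference -0.68 ± 0.19, adjusted p = 0.28). Its non-invading fraction rose by 0.55, and its invading fraction changed by -0.14.

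Among the genes with the strongest ratios at both times the interval of the difference included 0 for most. Those with the highest ratios were Mmp13, Mmp3, Ccl8, Prl2c5, the vault RNA Vaultrc5 and the small nucleolar RNA Snora31. The intervals were 0.16 to 1.48 for Mmp3, 0.01 to 1.37 for Ccl8, -0.31 to 1.51 for Prl2c5, -0.75 to 0.38 for Vaultrc5 and -1.34 to 0.79 for Snora31. Those with the lowest were Ogn, a small proteoglycan (-2.34 and -1.91), Mir145a, Uprt, Bmp4 (-1.92 and -1.79), Sema3c (-1.71 and -2.01) and the transcript B930095G15Rik. The interval reached from -0.56 to 1.41 for Ogn, from -0.58 to 0.83 for Bmp4 and from -0.83 to 0.24 for Sema3c. Ogn rose in both fractions, by 1.70 and 1.27, so that its ratio changed less than its levels.

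Of the genes the study followed by qRT-PCR, Tgfb1 was higher in invading cells by 1.26 at 72 hours and 1.72 at 96 hours on the log2 scale, 2.40-fold and 3.29-fold. It fell in both fractions, from 10.59, 10.71, 10.41 and 10.32 to 9.91, 10.18, 10.10, 10.11 and 10.15 in invading and from 9.44, 9.21, 9.24 and 9.09 to 8.58, 8.21, 8.28, 8.48 and 8.31 in non-invading samples. The fall was 0.42 in the former and 0.87 in the latter, which left a difference of 0.46 ± 0.13 (SE; 95% interval 0.18 to 0.74, adjusted p = 0.32). Cav1, the main protein of caveolae, had ratios of -0.61 and -0.33 (95% interval of the difference -0.02 to 0.57), and Sfrp1, a Wnt antagonist, had -1.41 and -1.11 (-0.25 to 0.85).

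Chemokine, cytokine and NF-kB target genes had a median log2 ratio of 0.06 at the earlier and 0.15 at the later time, with a median difference of 0.17. Of 46 members 38 had a difference above 0, and 0 passed the adjusted test by limma. At an unadjusted p under 0.05, 5 were higher (Birc3, Il6, Ly96, Nfkbia and Ccl8) and 1, Csf2, lower, beside 4.73% and 3.41% of all genes. Csf2 was dim, with a mean signal of 4.80. The count of 5 was 3 without invading 72 hours replicate 4 and 9 with the replicate number as a block. Higher in invading cells at an adjusted p under 0.10 were 8 members at 72 hours and 16 at 96 hours, and lower were 6 and 5. The shares of all genes were 16.9% and 17.0% higher and 15.7% and 15.0% lower, so the 8 of 46 at 72 hours and the lower counts were near or under the background. From 72 to 96 hours 2 members rose and 11 fell in the invading fraction, where 18.2% and 16.7% of all genes did. In the non-invading fraction 1 rose and 17 fell, where 15.4% and 12.2% of all genes did.

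Ccl8, a monocyte chemokine, had the largest difference of the list. Its signal in invading samples was 11.50, 11.71, 10.88 and 11.05 at 72 hours and 10.96, 11.44, 11.09, 11.43 and 11.42 at 96 hours. In non-invading samples it was 10.53, 9.90, 9.44 and 9.17 at 72 hours and 9.24, 9.16, 8.91, 8.70 and 9.27 at 96 hours. It changed by -0.02 in invading cells and fell by 0.71 in non-invading cells, with a difference of 0.69 ± 0.32 (SE, adjusted p = 0.57). Ly96, the partner of Toll-like receptor 4, stayed lower in invading cells with -1.54 and -1.0. Interferon stimulated genes had a median difference of -0.09 over 28 genes, which was 0.0026 without non-invading 72 hours replicate 4. By limma 0 of them had an unadjusted p under 0.05, beside 4.73% higher and 3.41% lower of all genes.

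Dpt and Cxcr4 were higher in invading cells at 96 hours only. Dpt, a dermatopontin that binds collagen and small proteoglycans, had 5.88, 6.20, 5.79 and 5.79 in invading and 6.41, 5.83, 5.73 and 5.65 in non-invading samples at 72 hours. At 96 hours it had 6.996, 7.81, 7.01, 7.29 and 7.68 in invading and 6.04, 6.25, 5.98, 5.95 and 6.36 in non-invading samples. The invading samples at 96 hours lay above every other sample, and the difference of 1.24 ± 0.25 (SE; 95% interval 0.70 to 1.77, 2.36-fold) was the largest among all genes, with an adjusted p of 0.14. Cxcr4, the receptor of the chemokine Cxcl12, had 6.21, 6.24, 5.84 and 6.13 against 5.73, 5.84, 5.95 and 6.17 at 72 hours. At 96 hours it had 6.66, 6.93, 6.75, 6.54 and 6.64 against 5.997, 5.55, 5.66, 5.81 and 5.76, again with the invading samples above all others (difference 0.77 ± 0.15, adjusted p = 0.14). Both genes are dim on the array. The adjusted p of both was under 0.10 without the low-numbered unnamed probe sets and with probe sets limited to a linear signal above 100. That limit kept every probe set that passed it in any sample, and both genes did so only in invading samples at 96 hours. They were thus kept by the same samples that make their difference high, so the p under this limit is no independent support.

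Further genes were among the 8 with the highest difference at an unadjusted p under 0.01. These were Hbegf (0.88), a ligand of the EGF receptor, Scoc (0.87), a Golgi coiled-coil protein, and Phex (0.81), a membrane endopeptidase. Scoc had 7.79, 7.53, 8.15 and 7.43 in invading and 9.15, 9.15, 8.88 and 9.12 in non-invading samples at 72 hours, a log2 ratio of -1.35. At 96 hours it had 8.90, 9.21, 9.01, 9.03 and 9.05 against 9.24, 9.62, 9.57, 9.68 and 9.51, a ratio of -0.48. The fractions were apart at both times, and the gap was the smaller one at 96 hours (adjusted p = 0.14 for the difference). Phex went from -1.07 to -0.26 and rose in the invading fraction, by 0.86.

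Contractile genes had a median log2 ratio of -0.10 at the earlier and -0.03 at the later time, and a median difference of 0.11 over 28 genes, of which 19 were above 0. Desmin (Des), an intermediate filament protein, was the 1 member higher at an unadjusted p under 0.05, where 4.73% of all genes were. It had 6.39, 6.47, 6.53 and 6.60 in invading and 6.59, 6.59, 6.32 and 6.58 in non-invading samples at 72 hours, and 6.30, 6.74, 6.60, 6.45 and 6.58 against 5.93, 6.01, 6.02, 6.32 and 6.05 at 96 hours. It fell by 0.45 in non-invading cells and changed by 0.04 in invading cells. Acta2, the smooth muscle actin of myofibroblasts, had ratios of -0.34 and -0.11 (difference 0.23 ± 0.13 SE), and Tpm1, a tropomyosin, had -0.56 and -0.39. Without invading 72 hours replicate 4 the count of members was 6 and with array weights 5, without any 1 of invading or non-invading replicate 3 at 72 hours, invading replicate 5 or non-invading replicate 4 at 96 hours it was 2, and the contractile list mean was highest among its group in the first of these samples.

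Matrix genes had median differences near 0. Collagens had a median difference of 0.01 over 20 genes, with 0 members at an unadjusted p under 0.05, beside 4.73% higher and 3.41% lower of all genes. In invading cells 8 of 20 were lower and 4 higher at each time. Of all genes 15.7% were lower and 16.9% higher at 72 hours, and 15.0% and 17.0% at 96 hours, so the 4 were near the background. Other matrix genes had a median of 0.02, with Has2, a hyaluronan synthase, at -0.84 and -0.17. Integrin and adhesion genes had a median of 0.05, with Itga6, a laminin receptor subunit, at -0.01 and 0.56. Cholesterol and fatty acid synthesis genes had medians of -0.34 at 72 hours and -0.23 at 96 hours, with Ebp at -0.24 and 0.07 and Elovl5 at -0.30 and 0.00. Bmp3 (-0.09 and -0.67) and Gpr21 (-0.31 and -1.13) were among the 8 lowest differences at an unadjusted p under 0.01, with adjusted p of 0.40 and 0.32. Their non-invading fractions rose by 0.84 and 0.65, and their invading fractions changed by 0.26 (adjusted p = 0.19) and -0.16 (adjusted p = 0.53). Gpr21 was dim, with a mean signal of 5.14. Of all genes with a mean under 6, 4.61% were lower and 1.12% higher at an unadjusted p under 0.05. Pcdhb20 (-0.37 and -0.95, adjusted p = 0.34 for the difference) rose by 0.65 in the non-invading fraction. Twist1, a mesenchymal transcription factor, was higher in invading cells by 0.41 at 72 hours and level at 96 hours (-0.08).

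**Figure D5:**
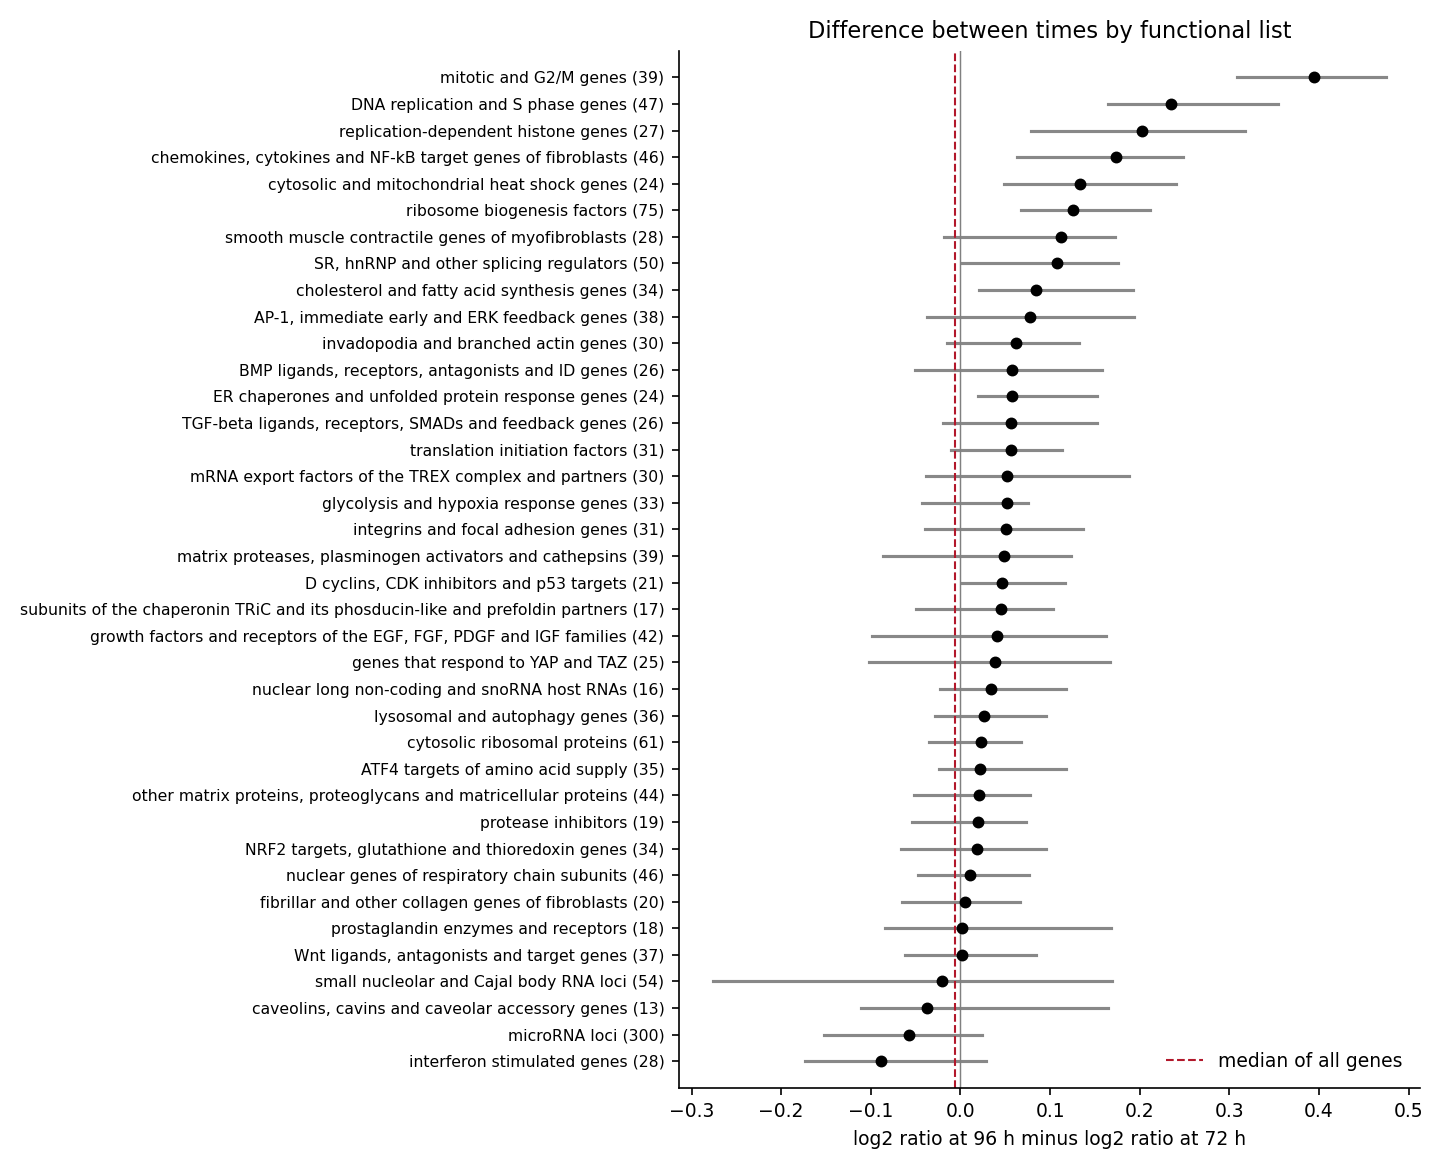
Median (point) and middle 50% (line) of the difference between times for each of 38 functional lists, with the number of genes measured in brackets and the median of all genes as a dashed line. Mitotic, DNA replication and histone genes have the highest medians, and interferon stimulated genes and microRNA loci the lowest.

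Of the 38 lists 34 had a median difference above 0 and 8 above 0.1. The sign of lists near 0 changed with the scaling, for respiratory chain genes and protease inhibitors after a further quantile normalization and for caveolar genes and small nucleolar RNAs after centring. The difference also moved with the brightness of a gene. The median over all genes was -0.04 for mean signals under 6, 0.00 between 7 and 8 and 0.04 above 10, and of the 8060 genes with a mean of 8 or more 8.60% were higher and 2.67% lower at an unadjusted p under 0.05. In the same range the mitotic list had 33 genes with a median of 0.39 and 66.7% higher, DNA replication 38.1%, ribosome biogenesis 17.9%, heat shock 20.8% and chemokines 18.2%, whereas contractile genes and histones had 0.0%. The part of brightness in the smaller medians was not tested.

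Of 54 small nucleolar and Cajal body RNA loci 9 (16.7%) were lower and 0 higher at an unadjusted p under 0.05, beside 3.41% and 4.73% of all genes, although the median was -0.02, and the 9 were 17 without invading 72 hours replicate 1 and 5 without non-invading 72 hours replicate 4. Snora23, which guides pseudouridylation, had 11.28, 11.71, 11.54 and 11.68 in invading and 10.97, 10.87, 10.77 and 10.73 in non-invading samples at 72 hours. By 96 hours the signal was 10.52, 10.35, 10.10, 10.23 and 10.60 against 10.35, 10.49, 10.15, 10.19 and 10.16. It fell in both fractions, by 1.19 and 0.57, and its ratio went from 0.72 to 0.09 (difference -0.63 ± 0.15 SE, adjusted p = 0.26). Snord14e (0.18 and -0.59) and Snora30 (0.65 and -0.06) were also among the 8 lowest at an unadjusted p under 0.01.

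Of 300 microRNA loci 16 (5.33%) were lower and 3 higher at an unadjusted p under 0.05, with a median difference of -0.06. Most of these loci were dim, and of all genes with a mean signal under 6 4.61% were lower with a median of -0.04, so the share was near the background, and the 16 were 9 after either other scaling and 4 for loci with a linear signal above 100. Among the loci with an unadjusted p under 0.01 the lowest difference was that of Mir181a-2 on chromosome 2, while the lowest of all 300 was -0.79. Mir181a-2 had 5.44, 5.56, 5.57 and 5.66 in invading and 6.17, 6.08, 6.49 and 6.21 in non-invading samples at 72 hours. After 96 hours the locus had 6.58, 6.06, 5.50, 6.17 and 5.85 against 7.32, 7.67, 7.61, 7.09 and 7.43. Both fractions rose, the non-invading one by 1.19 and the invading one by 0.48, and the ratio went from -0.68 to -1.39 (difference -0.71 ± 0.23 SE, adjusted p = 0.37). Mature sequences of this locus and of the members with the smallest p, Mir542 (0.05 and -0.34) and Mir532 (0.19 and -0.27), are given from RefSeq with the seed, bases 2 to 8, in capitals. A further entry of Mir542, miR-542-5p, is not shown.
miR-181a-5p: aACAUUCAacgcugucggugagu
miR-181a-2-3p: aCCACCGAccguugacuguacc
miR-542-3p: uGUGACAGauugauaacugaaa
miR-532-3p: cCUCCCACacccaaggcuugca
These 4 seeds differ. The array measured RNA of the loci and does not tell the mature strands from their precursors.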

How the data were processed

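Total RNA of 18 samples was hybridised by the authors to Affymetrix Mouse Gene 1.0 ST arrays. The deposited values are log2 signals, which the authors made by RMA with sketch-quantile normalization in Affymetrix Expression Console 1.2. RMA evens out the distributions of the arrays, so a shift shared by most genes of a sample is lost. The genome build behind the array's probe annotation was not given in the sources used here.

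From these log2 values, limma 3.58.1 in R 4.3.3 fitted 1 mean per group (lmFit, eBayes) over all 35556 probe sets, without a replicate block, with Benjamini-Hochberg adjustment over all of them. The scripts were tested on simulated data. Of the probe sets 21789 carried 1 symbol, 1621 several and 12146 none, and 21698 were named through Entrez identifiers in the RefSeq table of GRCm38.p6. Of 1687 list entries 1607 were measured. The members and lists were chosen with earlier results of these data known. The number of arrays limits the precision.

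Genes were named if the adjusted p of the difference was under 0.10, if they were among the 8 highest or 8 lowest differences at an unadjusted p under 0.01, if they were among up to 2 members of a list with the smallest p under 0.05, or if they were among the 6 highest or 6 lowest by mean ratio. Mmp13, Tgfb1, Cav1 and Sfrp1 were added as genes of the study. Named after their values were seen were Snora75, Tmx1, Wee1, Nfyb, Ppid, the mitotic genes other than Kif23 and Top2a, Pcna, Nmd3, Cct6a, Srsf2, Adamts1, Il6, Ly96, Nfkbia, Acta2, Tpm1, Msln and Krt8. Alternatives were a further quantile normalization, centring on the median, a limit of 100 on the linear signal, an intensity trend with robust estimation, array weights, fewer probe sets, a replicate block and leaving out each sample.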

Additional observations from a re-analysis of the deposited data

Results flagged for a closer look

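The difference between times itself passed the test for Gtpbp4 (0.565), Pdcl (0.450) and Sarnp (0.589), as described above.

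Single samples stood apart from the rest of their group in 21 of 380 groups of 4 or 5 samples, for 89 genes and 6 list means, and about 5% of groups would do so by chance. Values are log2 signals, set beside the median of the other samples of the group. In invading 96 hours replicate 5, Diaph3 (8.01 beside 8.37), Ncapg (8.14 beside 8.63), Top2a (10.58 beside 10.94) and Hif1a (11.15 beside 11.40) were low. In non-invading 96 hours replicate 4, Mcm4 was high (9.48 beside 9.16), whereas Twist1 (9.26 beside 9.47), Snora30 (6.41 beside 6.55) and B930095G15Rik (9.76 beside 10.06) were low. Ncapg, Top2a and Mcm4 are cell cycle genes, and these samples were also the lowest and the highest in the mitotic list mean of their groups.

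In invading 96 hours replicate 1, Ccn5 (8.11 beside 8.63), Tgfb1 (9.91 beside 10.13) and the mean of the chemokine list (7.91 beside 8.10) were low, and Cct8 (10.37 beside 10.22) and Lrrn4 (6.35 beside 5.90) were high. In invading 72 hours replicate 4, Hspa13 (8.83 beside 9.26), Hspd1 (11.05 beside 11.34) and Uprt (8.33 beside 8.92) were low. Sfrp1 was low in invading 72 hours replicate 1 (9.33 beside 9.83), and Ptges3 in non-invading 96 hours replicate 1 (12.48 beside 12.59). In the non-invading samples of 72 hours, Des (6.32 beside 6.59) and Scoc (8.88 beside 9.15) were low in replicate 3 and Twist1 (8.42 beside 8.77) in replicate 4.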

How the results depend on the processing

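The counts of calls moved most. The 18 probe sets and 3 genes became 35 and 11 with centring, 32 and 15 with a linear signal above 100, 43 and 16 with an intensity trend, 38 and 12 with array weights, 0 and 0 with probe sets of 1 symbol or the brightest per gene, and 1 and 0 at an adjusted p under 0.05. Without the low-numbered unnamed probe sets, a setting chosen after seeing the data, 11 genes passed. Leaving out 1 sample gave 0 to 50 probe sets and 0 to 16 genes. The labels do not say whether same-numbered samples belong together. The study separated both fractions from plated cells, and used paired tests for qRT-PCR and for array values of growth factor receptors. Deviations of same-numbered samples correlated at -0.075 to 0.087 for 72 hours, with the own number best in 1 of 4. For 96 hours they correlated at 0.049 to 0.17, with the own number best in 4 of 5. As no label links the samples, the fit without the block was kept. Its SEs, intervals and calls therefore treat both fractions as independent. With a replicate block 0 probe sets and 0 genes passed. At an unadjusted p under 0.05 the 679 lower genes became 262 with centring and 355 with a signal above 100. Of list members higher at that p, the block gave 9 chemokine, 3 contractile and 3 heat shock genes instead of 5, 1 and 5, and contractile genes were 3 with centring, 2 with the trend and 5 with weights. Leaving out 1 sample gave 14 to 34 mitotic, 9 to 28 replication, 3 to 7 chemokine, 1 to 6 contractile, 2 to 7 heat shock and 7 to 18 ribosome biogenesis genes. Of heat shock genes 1 passed the adjusted test with a signal above 100, with the trend and without low-numbered probe sets, and 0 to 1 when 1 sample was left out. Of ribosome biogenesis genes 0 passed with probe sets of 1 symbol, with the brightest only and with the block, and 0 to 1 when 1 sample was left out. The medians of the 6 lists of mitotic, replication, chemokine, heat shock, ribosome biogenesis and contractile genes stayed above 0 in every setting. Of the named genes Bmp4 (0.13) reversed to -0.031 and -0.019 without invading 72 hours replicates 1 and 2, in a range of -0.031 to 0.35, and Snora31 (-0.27) to 0.081 without non-invading 96 hours replicate 2, in a range of -0.59 to 0.081. The cause was not tested.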
